A study of Homo sapiens with 4 samples.

Results

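The genes of the NF-κB transcription factors and of their feedback inhibitors were followed in HGC-27 cells, an established human gastric cancer (GC) line, after treatment with recombinant IL-17B (rIL-17B). The 10 genes were taken by name, as a fixed list, from 31907 gene names counted in the 4 libraries: the factor genes NFKB1, NFKB2, RELA, RELB and REL, the IκB genes NFKBIA, NFKBIE and NFKBIZ, and the inhibitor genes TNFAIP3 and BIRC3. RNA was sequenced from 2 libraries of HGC-27 cells given PBS, the vehicle, and 2 libraries of HGC-27 cells given 200 ng/ml rIL-17B, all collected after 48 h. Nothing in the sample labels says that the 2 libraries of a group came from separate cultures, so p-values measure only the spread between libraries, which may be technical. The library protocol in the labels speaks of monocytes, while the source of every sample is given as the HGC-27 line. Each value below is a read count per gene or CPM, the count divided by the total of its library and multiplied by 1000000. In such bulk RNA, fewer cells of a type and less RNA per cell cannot be told apart.

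NF-κB factors are dimers built from 5 related proteins. In resting cells they are held in the cytoplasm by IκB proteins, or by the uncleaved precursors of NFKB1 and NFKB2, and cytokine receptors release them through the IκB kinases. RELA with the p50 product of NFKB1 is the usual dimer of the canonical branch, and RELB with the p52 product of NFKB2 that of the non-canonical branch. Several of the genes switched on by NF-κB encode its own inhibitors, among them NFKBIA, NFKBIE and TNFAIP3, so that their mRNAs are often read as a sign of pathway activity. IL-17B binds the receptor IL-17RB, and receptors of the IL-17 family can signal to NF-κB through TRAF6.

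Because the members are commonly described as NF-κB targets, their promoters were searched for κB sites. RefSeq promoter windows on GRCh38.p14 reach from 250 bases before to 50 bases after a transcription start, and 13 windows covered 8 of the 10 genes. RELB and NFKBIE had no entry. The κB consensus decamer (GGG, a purine, any pair of bases, a pair of pyrimidines, CC, read on both strands) was present in some window of 7 of these 8 genes, against 13.3% of all 27305 genes with a window and 16.4% of the 14593 of them counted here. The looser pattern GGGNNNNNCC on both strands also takes in every decamer. It was present in 8 of 8 genes, against 61.7% of all genes and 74.0% of those counted here, so it separates little. In the further pathway lists described below, the decamer was present in 50% of the other inhibitors and 45.8% of the other targets with a window. It was present in 33.3% of the degradation and transport genes, 10% of the adaptors and kinases and 0% of the receptors. The 13 member windows had a median GC content of 68.7%, against 58.7% over all 35116 windows and 63% over the 20606 windows of genes counted here. The part of GC content in the matches was not tested. A match is a string of letters and not a bound site. The windows of 5 genes with the decamer and of RELA, which had none, are shown 5′ to 3′ on the strand of the gene and were chosen after the values were seen, to span members far from and close to PBS in the treated libraries. For genes with several windows the one with most decamers was taken, the first in a tie, and for RELA the one that overlaps the 5′ end of the gene in GENCODE 29. Capitals mark decamers, and overlapping ones run together.
BIRC3, chr11:102317234-102317533, plus strand: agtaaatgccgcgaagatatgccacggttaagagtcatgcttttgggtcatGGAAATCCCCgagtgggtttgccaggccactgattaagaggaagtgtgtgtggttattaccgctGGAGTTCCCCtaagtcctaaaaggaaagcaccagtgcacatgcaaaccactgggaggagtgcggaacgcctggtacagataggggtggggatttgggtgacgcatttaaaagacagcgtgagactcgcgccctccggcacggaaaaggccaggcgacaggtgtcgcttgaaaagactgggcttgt
TNFAIP3, chr6:137867009-137867308, plus strand: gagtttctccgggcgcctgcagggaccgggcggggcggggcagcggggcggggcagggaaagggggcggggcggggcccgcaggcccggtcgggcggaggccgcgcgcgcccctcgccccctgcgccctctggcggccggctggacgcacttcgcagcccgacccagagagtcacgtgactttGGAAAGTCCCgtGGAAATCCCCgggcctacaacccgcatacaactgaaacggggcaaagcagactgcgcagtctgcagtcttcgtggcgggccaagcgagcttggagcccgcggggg
NFKBIZ, chr3:101827740-101828039, plus strand: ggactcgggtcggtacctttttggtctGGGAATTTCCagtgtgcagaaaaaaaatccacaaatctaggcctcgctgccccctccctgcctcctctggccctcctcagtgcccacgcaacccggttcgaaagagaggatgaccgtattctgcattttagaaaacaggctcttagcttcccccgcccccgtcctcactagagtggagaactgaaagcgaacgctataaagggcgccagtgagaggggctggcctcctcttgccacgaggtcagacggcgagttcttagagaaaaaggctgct
NFKB2, chr10:102394328-102394627, plus strand: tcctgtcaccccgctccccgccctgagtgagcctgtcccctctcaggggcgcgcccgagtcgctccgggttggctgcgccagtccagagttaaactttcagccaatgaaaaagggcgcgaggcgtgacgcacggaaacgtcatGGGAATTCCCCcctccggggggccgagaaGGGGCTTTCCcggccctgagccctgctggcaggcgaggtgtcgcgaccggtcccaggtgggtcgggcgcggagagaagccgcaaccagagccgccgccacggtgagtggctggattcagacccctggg
NFKBIA, chr14:35404700-35404999, minus strand: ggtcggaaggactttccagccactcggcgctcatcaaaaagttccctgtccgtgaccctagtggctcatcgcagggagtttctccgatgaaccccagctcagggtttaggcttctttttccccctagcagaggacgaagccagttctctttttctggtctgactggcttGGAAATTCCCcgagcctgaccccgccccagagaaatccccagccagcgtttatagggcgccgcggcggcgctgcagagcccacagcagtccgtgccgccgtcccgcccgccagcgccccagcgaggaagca
RELA, chr11:65662867-65663166, minus strand: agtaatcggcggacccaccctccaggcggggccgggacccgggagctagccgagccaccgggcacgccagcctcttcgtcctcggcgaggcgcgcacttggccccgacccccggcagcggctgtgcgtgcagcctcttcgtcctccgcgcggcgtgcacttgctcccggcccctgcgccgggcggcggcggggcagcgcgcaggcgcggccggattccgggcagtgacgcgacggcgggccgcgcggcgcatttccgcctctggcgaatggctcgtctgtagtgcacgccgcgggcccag
Counted from the transcription start, the decamers begin at positions -199 and -135 in BIRC3 and at positions -67 and -55 in TNFAIP3. NFKB1 and REL also held the decamer, GGGAATTTCC at position -49 of NFKB1 and GGGAAATTCC at position -47 of REL. Whether presence of the decamer went with the values in the libraries was not tested, and RELB and NFKBIE had no window.

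The libraries held between 12888029 and 17555879 counts, so that 3 counts, the floor of detection, were between 0.171 and 0.233 CPM. This floor and the intervals below cover counting error only, because PCR copies were counted as separate reads. rIL-17B replicate 1 stood apart from the other 3 libraries: with 0.5 CPM added, between 2899 and 3566 of the 16361 genes tested differed at least 2-fold between it and another library, against 84 to 294 for every other pair. In markers fixed for this work, the mesenchymal list held VIM, FN1, CDH2, ZEB1, ZEB2, COL1A1, COL1A2 and TWIST1. In each library 0 of these 8 genes were at 0. The list summed to 46952.5 and 46245 CPM with PBS, 741 CPM in rIL-17B replicate 1 and 39224 CPM in replicate 2. In replicate 2, 7 of the 8 genes lay below both PBS libraries, against 36.1% of all genes tested. Their median log2 ratio to the PBS mean there was -0.24, beside -0.0013 over all genes. FN1, COL1A1 and COL1A2 made up most of the summed CPM in every library but rIL-17B replicate 1. VIM and CDH2 were 2.56-fold and 2.29-fold below the PBS mean in rIL-17B replicate 1. TWIST1, at 11.7 CPM in each rIL-17B library, lay between the PBS values of 13.3 and 9.78 CPM. The epithelial list of 8 genes summed to 784 and 792 CPM with PBS, 1825 CPM in rIL-17B replicate 1 and 1007 CPM in replicate 2. Nearly all of it was KRT8 and KRT18, with ESRP1 and GRHL2 at 0 or 1 count throughout. KRT19 went the other way, with 1 count in rIL-17B replicate 1 against 43 to 58 elsewhere, and CLDN4 lay slightly below both PBS values in each treated library. Of 10 monocyte markers, 7 were at 0 in rIL-17B replicate 1 and 0 in each other library, with sums between 8.48 and 15.7 CPM in the 4 libraries. Of the 8.48 CPM in rIL-17B replicate 1, 8.14 were CSF1R, which was higher there than under PBS. The part of these differences in the NF-κB values was not tested, so every result is given for each rIL-17B library separately.

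All 10 genes had counts in every library and passed the filter on low counts. Between the PBS libraries they differed by at most 1.12-fold, in NFKBIZ. By the quasi-likelihood test of edgeR, adjusted by Benjamini-Hochberg over all 16361 genes, 0 of the 10 differed between rIL-17B and PBS (background 0%), and their adjusted p ran from 0.661 to 0.869. Without adjustment, 0 of the 10 had a p under 0.05 in edgeR and 0 in DESeq2, against 1.38% and 2.79% of all genes. The fitted log2 fold change was below 0 for 9 of the 10, against 8608 of the 16361 genes tested. Its median was -0.47 for the members, beside -0.03 over all genes tested.

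**Figure D1:**
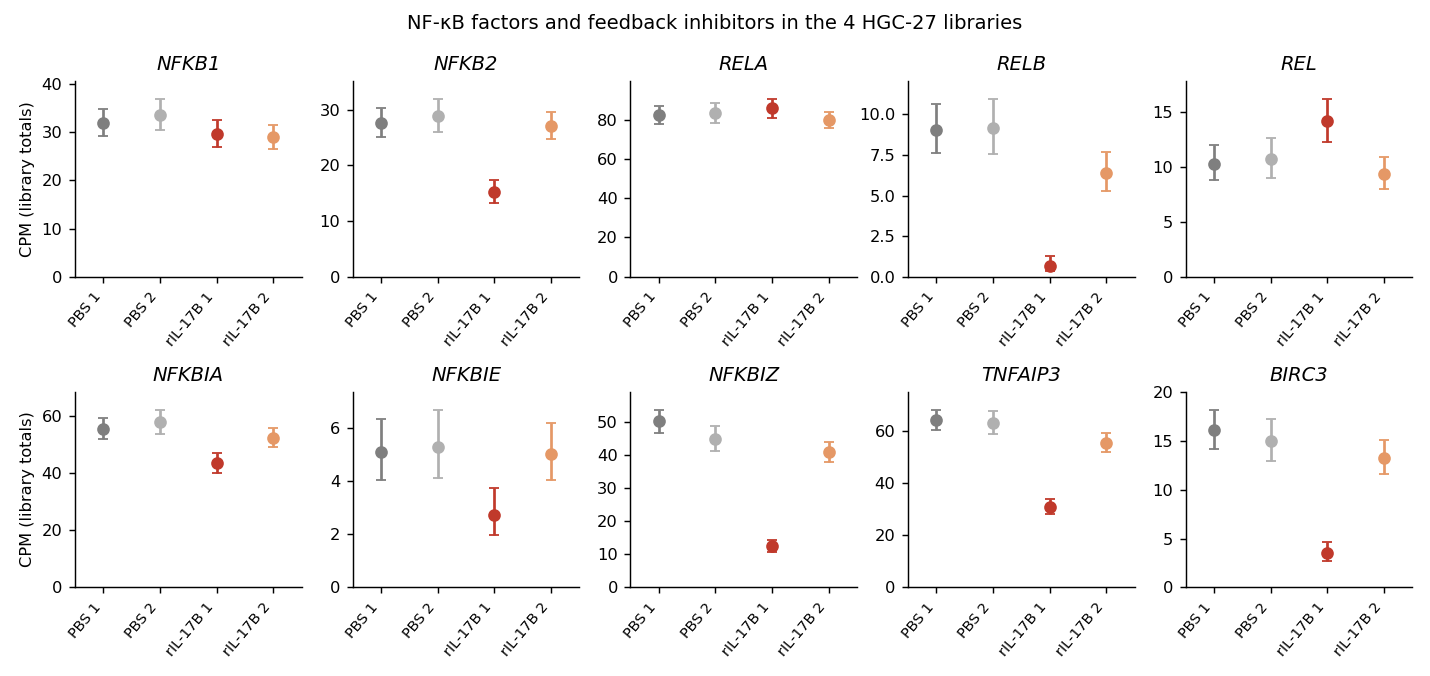
CPM on library totals (vertical axes, each from 0) of the 10 genes in the PBS and rIL-17B libraries (horizontal axis), 1 point per library, with exact 95% binomial intervals of the counting error. rIL-17B replicate 1 lies far below both PBS libraries for RELB, BIRC3 and NFKBIZ and above them for REL, while rIL-17B replicate 2 lies slightly below both PBS libraries in all 10 panels.

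RELA (chr11:65653596.0-65663094.0, minus strand, GRCh38, GENCODE 29) encodes p65, the main transactivating factor of the canonical branch, and had the smallest fitted change of the 10. It had 82.3 and 83.3 CPM under PBS, 85.7 CPM in rIL-17B replicate 1 and 79.9 CPM in replicate 2. The groups overlapped, and the log2 fold change was -0.07 ± 0.09 (SE, edgeR adjusted p = 0.717). On totals scaled by TMM, the trimmed mean of M-values that edgeR uses to align libraries, both rIL-17B libraries lay below both PBS libraries, and with library totals alone the fitted change was 0.00025, so RELA has no direction that holds across scalings.

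NFKB1 (chr4:102501329.0-102617302.0, plus strand) encodes p105, the precursor of p50. Its levels were 31.8 and 33.6 CPM under PBS, 29.7 CPM in rIL-17B replicate 1 and 28.9 CPM in replicate 2. Both rIL-17B values were below both PBS values and the 2 rIL-17B libraries were close to each other. The log2 fold change was -0.23 ± 0.11 (SE, edgeR adjusted p = 0.661). REL (chr2:60881521.0-60931610.0, plus strand) encodes c-Rel, known mostly from lymphoid cells, and had 164 and 138 counts under PBS, 207 and 164 counts under rIL-17B. These are 10.3 and 10.7 CPM against 14.2 and 9.34 CPM, so that replicate 1 was above and replicate 2 below both PBS libraries, with a log2 fold change of 0.08 ± 0.25 (SE, edgeR adjusted p = 0.869).

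RELB and NFKB2, the genes of the non-canonical dimer, had the largest fitted changes of the 5 factor genes, and differed mainly in rIL-17B replicate 1. In replicate 2, NFKB2 was nearer to the PBS mean than NFKB1 and REL, at 88.5% and 88.9% of it. RELB (chr19:45001430.0-45038198.0, plus strand) had 144 and 118 counts with PBS, 10 counts in rIL-17B replicate 1 and 112 in the other treated library. These are 9.05 and 9.16 CPM under PBS, 0.684 and 6.38 CPM under rIL-17B, or 7.51% and 70.1% of the PBS mean. The groups did not overlap, the 2 PBS values were nearly equal, and RELB was the member farthest from PBS in each rIL-17B library. The exact 95% interval was 0.328 to 1.26 CPM in rIL-17B replicate 1 and 5.25 to 7.68 CPM in replicate 2, which reached just into the PBS intervals starting at 7.64 and 7.58 CPM. The log2 fold change of RELB was -1.38, with a standard error of 1.14 (adjusted p = 0.662 from edgeR's test). NFKB2 (chr10:102394110.0-102402529.0, plus strand), which encodes p100, the precursor of p52 and itself an IκB-like inhibitor, had 27.5 and 28.9 CPM under PBS, 15.2 and 27.1 CPM under rIL-17B. Replicate 1 was at 53.9% of the PBS mean and replicate 2 at 95.9%, and the log2 fold change was -0.47 ± 0.37 (SE, edgeR adjusted p = 0.662).

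The makeup of the family can be read from CPM per kb of exon (GENCODE 29), the scale on which levels of different genes are compared. RELA took 50.1% and 49.4% of the summed level of the 5 factor genes with PBS, 62.5% in rIL-17B replicate 1 and 52.0% in replicate 2. RELB took 9.93% and 9.77% with PBS, 0.897% in rIL-17B replicate 1 and 7.48% in replicate 2. REL was the least of the 5 with PBS, at 2.61% and 2.63%, and exceeded RELB in rIL-17B replicate 1, at 4.28%. In the other rIL-17B library the order of the 5 genes was the PBS order, RELA, NFKB2, NFKB1, RELB and REL. In rIL-17B replicate 1 it was RELA, NFKB1, NFKB2, REL and RELB. Exon length stands for transcript length only roughly, since the isoforms in use are not known.

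**Figure D2:**
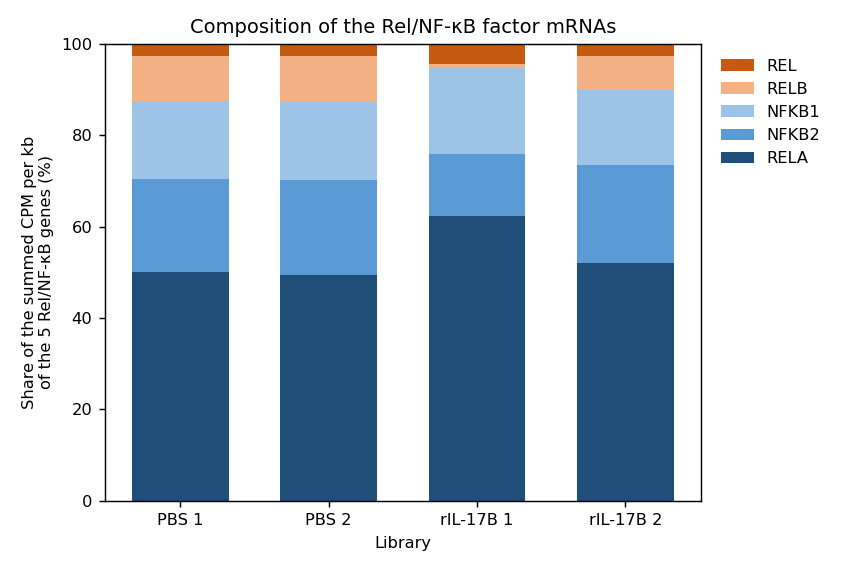
Share (%) of each of the 5 Rel/NF-κB genes in their summed CPM per kb of exon, 1 stacked bar per library. RELA is the largest part of every bar, and the RELB part shrinks from 9.93% and 9.77% with PBS to 0.897% in rIL-17B replicate 1 and 7.48% in replicate 2.

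Among the inhibitors, NFKBIA (chr14:35401511.0-35404749.0, minus strand) had the highest level per length of all 10 genes in every library. It encodes IκBα, the inhibitor that is degraded and made anew in each round of canonical signaling. Its level was 23.4 and 24.4 CPM per kb with PBS and 18.3 and 22.0 CPM per kb with rIL-17B. In CPM these are 55.5 and 57.9 with PBS and 43.4 and 52.3 with rIL-17B, so that the groups did not overlap. The log2 fold change was -0.31 ± 0.17 (SE, edgeR adjusted p = 0.661). NFKBIE (chr6:44258166.0-44265788.0, minus strand), which encodes IκBε, had only 40 to 88 counts per library, or 5.09 and 5.28 CPM under PBS, 2.74 and 5.01 CPM under rIL-17B. In rIL-17B replicate 2 it was at 96.7% of the PBS mean, and the log2 fold change was -0.47 ± 0.44 (SE, edgeR adjusted p = 0.673).

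NFKBIZ (chr3:101827991.0-101861022.0, plus strand) encodes IκBζ, a nuclear IκB that works as a coactivator and is itself induced by IL-17A in epithelial cells. It had 50.1 and 44.8 CPM with PBS, 12.4 CPM in rIL-17B replicate 1 and 40.9 CPM in replicate 2. Replicate 1 was 3.83-fold below the PBS mean, whereas the distance of replicate 2 to the nearer PBS library was smaller than that between the PBS libraries. The log2 fold change was -0.87 ± 0.68 (SE, edgeR adjusted p = 0.662).

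TNFAIP3 (chr6:137867188.0-137883312.0, plus strand) encodes A20, a ubiquitin-editing enzyme that shuts off signaling upstream of the IκB kinases. It had 64.1 and 63.0 CPM with PBS, 30.9 CPM in rIL-17B replicate 1 and 55.4 CPM in replicate 2. The PBS libraries were close to each other and both rIL-17B libraries lay below them, at 48.7% and 87.2% of the PBS mean. The log2 fold change was -0.61 ± 0.37 (SE, edgeR adjusted p = 0.661). TNFAIP3 shares 95 exon bases with AL357060.1 on the opposite strand, which leaves a small part of its counts uncertain since the use of strand is not given in the sources used here. None of the other 9 members shares exon bases with another counted gene.

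BIRC3 (chr11:102317450.0-102339403.0, plus strand) encodes cIAP2, a ubiquitin ligase that protects from cell death and keeps NIK, the kinase of the non-canonical branch, low. It had 256 and 193 counts under PBS, 52 and 233 counts under rIL-17B, which are 16.1 and 15.0 CPM against 3.56 and 13.3 CPM. Replicate 1 was 4.37-fold and replicate 2 1.17-fold below the PBS mean. The log2 fold change was -0.92 ± 0.75 (SE, edgeR adjusted p = 0.662). BIRC2, which encodes the paralog cIAP1 and lies 7807 bases away on chromosome 11, was added once its values were known, and measured 63.9 and 58.7 CPM under PBS, 48.7 and 64.7 CPM under rIL-17B. The groups overlapped for BIRC2 and not for BIRC3.

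Read as a list, 8 of the 10 members were below both PBS libraries in both rIL-17B libraries, against 27.5% of all genes tested, and 0 were above both in both, against 31.5%. On TMM-scaled totals the counts were 9 (background 30.4%) and 0 (background 28.5%). This scaling moved the median log2 ratio of all genes in rIL-17B replicate 1 from 0.08 to -0.04 and that of the members from -0.84 to -0.97. In rIL-17B replicate 1 alone, 8 members lay below both PBS libraries (background 40.8%) and 2, RELA and REL, above them (background 50.1%). RELB, BIRC3, NFKBIZ and TNFAIP3 were at least 2-fold below the PBS mean with 0.5 CPM added, 4 of 10 against 18.6% of all genes, and 0 were 2-fold above (background 2.61%). The exact 95% intervals of 7 members, NFKB2, RELB, NFKBIA, NFKBIE, NFKBIZ, TNFAIP3 and BIRC3, lay wholly below those of both PBS libraries. The interval of REL, which was higher, overlapped that of PBS replicate 2. Such intervals were computed for the members only, so these 7 cannot be set against a share of all genes.

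In rIL-17B replicate 2 the differences were small and all in 1 direction. All 10 members were below both PBS libraries, against 36.1% of all genes tested, with a median log2 ratio of -0.17 beside 0.00 over all genes (-0.0013 before rounding). They ranged from 70.1% of the PBS mean for RELB to 96.7% for NFKBIE. None was above both (background 37%), and 0 were 2-fold below or above the PBS mean (backgrounds 0.575% and 0.0611%). For 0 of the 10 did the 95% interval lie wholly below both PBS intervals, and the share of all genes was not computed. Overlap of intervals is not a test of a difference, so it does not show that counting error covers these differences. The 10 values come from 1 library and are not replicates of each other.

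**Figure D3:**
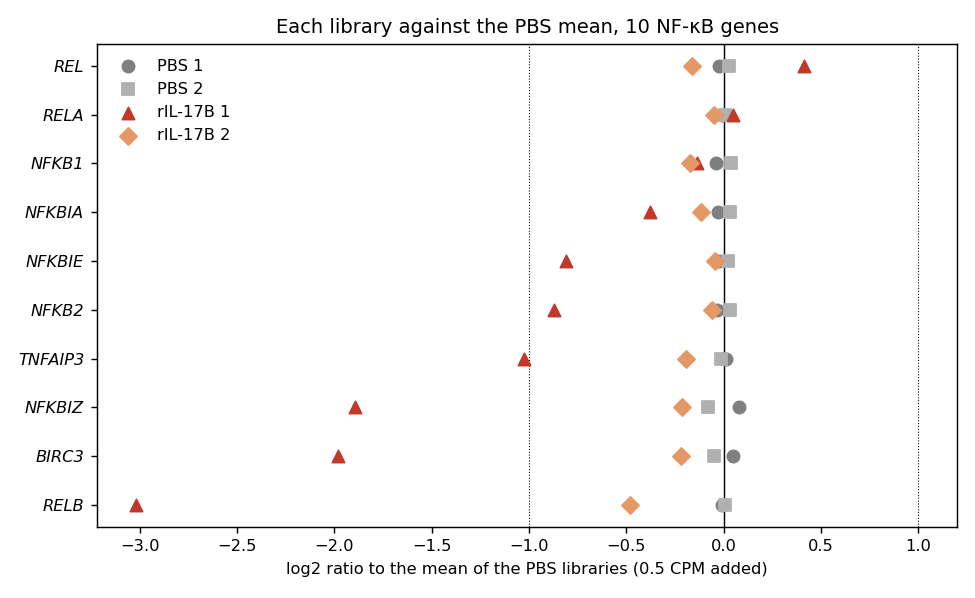
Log2 ratio of each library to the mean of the PBS libraries (horizontal axis, 0.5 CPM added, dotted lines at 2-fold) for the 10 genes (vertical axis, ordered by rIL-17B replicate 1), 1 symbol per library. rIL-17B replicate 1 spreads from -3.02 for RELB to 0.41 for REL, while rIL-17B replicate 2 stays between -0.48 and -0.04.

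The edgeR fit was repeated with 1 rIL-17B library at a time, where the lone library is assumed to vary like the PBS libraries and the test compares that library, not the treatment. With rIL-17B replicate 1 left out, 0 of the 10 members were called (2.3% of all genes were called lower and 0.643% higher). The nearest was RELB, with a log2 fold change of -0.52 ± 0.22 (SE, edgeR adjusted p = 0.230), followed by NFKBIZ and TNFAIP3 with -0.22 and -0.20 (adjusted p = 0.359 and 0.374 in the same edgeR fit). At an unadjusted p under 0.05 there were 2 members in it, RELB and NFKBIZ, against 13.7% of all genes. With rIL-17B replicate 2 left out, 7 members were called lower, against 31.9% of all genes, and 0 higher, against 23.2%. Their adjusted p lay between 2.58e-47 for NFKBIZ and 0.00215 for NFKBIE in edgeR's test, and the other three, NFKB1, RELA and REL, had adjusted p of 0.0567, 0.470 and 0.174. The calls were thus made only in the fit that kept the library standing apart and dropped the other, a fit that called 9489 genes.

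The rest of the pathway was read from 5 further lists of 99 genes, of which 96 were tested. Of these 96, 0 were called by edgeR and 0 had an unadjusted p under 0.05, while DESeq2 gave 0 and 3, beside 2.79% of all genes at that unadjusted p. Of all genes tested, 27.5% were lower and 31.5% higher in both rIL-17B libraries (30.4% and 28.5% on TMM-scaled totals), and the counts of each list below are to be read against these shares. Among 15 receptors that signal to NF-κB, 9 were lower and 4 higher in both rIL-17B libraries on either scaling, the latter near the share of all genes, with a median log2 fold change of -0.48. The most abundant were TNFRSF10B, a death receptor for TRAIL, TNFRSF1A, the main TNF receptor, and LTBR, the lymphotoxin β receptor that feeds the non-canonical branch. LTBR had 147 and 146 CPM under PBS, 175 and 163 CPM under rIL-17B, above PBS in both libraries, with 422 exon bases shared with SCNN1A on the opposite strand. TNFRSF10B, by contrast, had 195 and 189 CPM under PBS, 115 and 171 CPM under rIL-17B. TNFRSF1A was also lower in both rIL-17B libraries, with 174 and 178 CPM under PBS, 149.9 and 167 CPM under rIL-17B. The largest fitted changes were those of IL1R1, the IL-1 receptor, with 108 and 97.4 CPM with PBS against 0.616 and 83.1 CPM, and of TNFRSF1B, with 13.6 and 19.6 CPM against 0.479 and 12.6 CPM.

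The 22 adaptors, ubiquitin ligases and kinases upstream of NF-κB had a median log2 fold change of -0.06, close to that of all genes, with 2 lower and 9 higher in both rIL-17B libraries (5 and 8 on TMM-scaled totals, against 30.4% and 28.5% of all genes). UBE2N, which makes the K63-linked ubiquitin chains used by TRAF6, had 83.4 and 86.5 CPM under PBS, 111 and 94.0 CPM under rIL-17B. UBE2N shares 2474 of its 6269 exon bases with NUDT4 on the opposite strand, so its counts are uncertain without the strand setting. MAP3K7, which encodes the kinase TAK1, and its partner TAB2 overlapped between the groups, with log2 fold changes of 0.00 (0.0035 before rounding) and -0.12. On library totals the 2 genes lower in both libraries were TRAF5 and RBCK1, the former at 37.3 and 39.3 CPM under PBS, 6.16 and 36.9 CPM under rIL-17B. RBCK1, which encodes a subunit of the linear ubiquitin ligase, had 87.8 and 88.4 CPM under PBS, 43.6 and 82.6 CPM under rIL-17B.

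The 15 other IκB proteins and negative regulators had a median of -0.11, with 4 lower and 2 higher in both libraries (5 and 1 on TMM-scaled totals), the lower counts being near the 27.5% and 30.4% of all genes. RNF11, a partner of A20, had 151 and 140 CPM under PBS, 68.2 and 134 CPM under rIL-17B. TAX1BP1 and ITCH, further partners of A20, overlapped between the groups at 115 to 121 and 74.4 to 82.5 CPM. PDLIM2, a ligase that degrades nuclear p65, had 10.9 and 10.7 CPM under PBS, 3.76 and 8.72 CPM under rIL-17B, and TNIP3 had at most 22 counts.

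The 17 genes of IκB degradation, nuclear transport and coactivation had a median of 0.10, with 2 lower and 8 higher in both libraries (4 and 8 on TMM-scaled totals), against 27.5% and 31.5% of all genes (30.4% and 28.5%). The importin genes KPNA2 and KPNB1 and the exportin gene XPO1 were the most abundant and each exceeded both PBS values in both rIL-17B libraries. KPNA2 had 251 and 235 CPM under PBS, 499 and 308 CPM under rIL-17B, with a fitted change of 0.64 ± 0.24 (SE, edgeR adjusted p = 0.661). NCOA1, a coactivator, was lower in both, with 37.7 and 37.2 CPM against 23.3 and 32.3 CPM.

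The 30 other known NF-κB targets, 27 of them tested, had the lowest median of the pathway lists, -0.97. In the same fit the marker lists had medians of -1.18 (monocyte), -1.01 (mesenchymal) and 0.44 (epithelial). Of the 27 fitted changes of the targets, 26 were below 0, against 8608 of the 16361 genes tested. In both rIL-17B libraries 16 targets were lower and 1 higher, against 27.5% and 31.5% of all genes. On TMM-scaled totals the counts were 16 and 0, against 30.4% and 28.5%. In rIL-17B replicate 1, 24 of the 27 were below both PBS libraries (background 40.8%) and 23 at least 2-fold below the PBS mean (background 18.6%), a median log2 ratio of -1.99. In rIL-17B replicate 2 the median was -0.13, with 17 of 27 below both PBS libraries (background 36.1%), and 0 were 2-fold below or above the PBS mean (0.575% and 0.0611%). CXCL8, a neutrophil chemokine, had 176 and 165 CPM with PBS, 0.0684 CPM (1 count) in rIL-17B replicate 1 and 126 CPM in replicate 2. The value in replicate 2 was 73.7% of the PBS mean. IL32, an inflammatory cytokine gene, had 10.3 and 8.30 CPM with PBS against 0 and 6.55 CPM with rIL-17B. SOD2, the mitochondrial superoxide dismutase, had 319 and 293 CPM under PBS, 76.7 and 284 CPM under rIL-17B. Not every target followed: IER3 had 110 and 124 CPM under PBS, 134 and 125 CPM under rIL-17B, above PBS on library totals but not on TMM-scaled ones, and TNFAIP2 overlapped between the groups at 129.9 to 144 CPM.

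**Figure D4:**
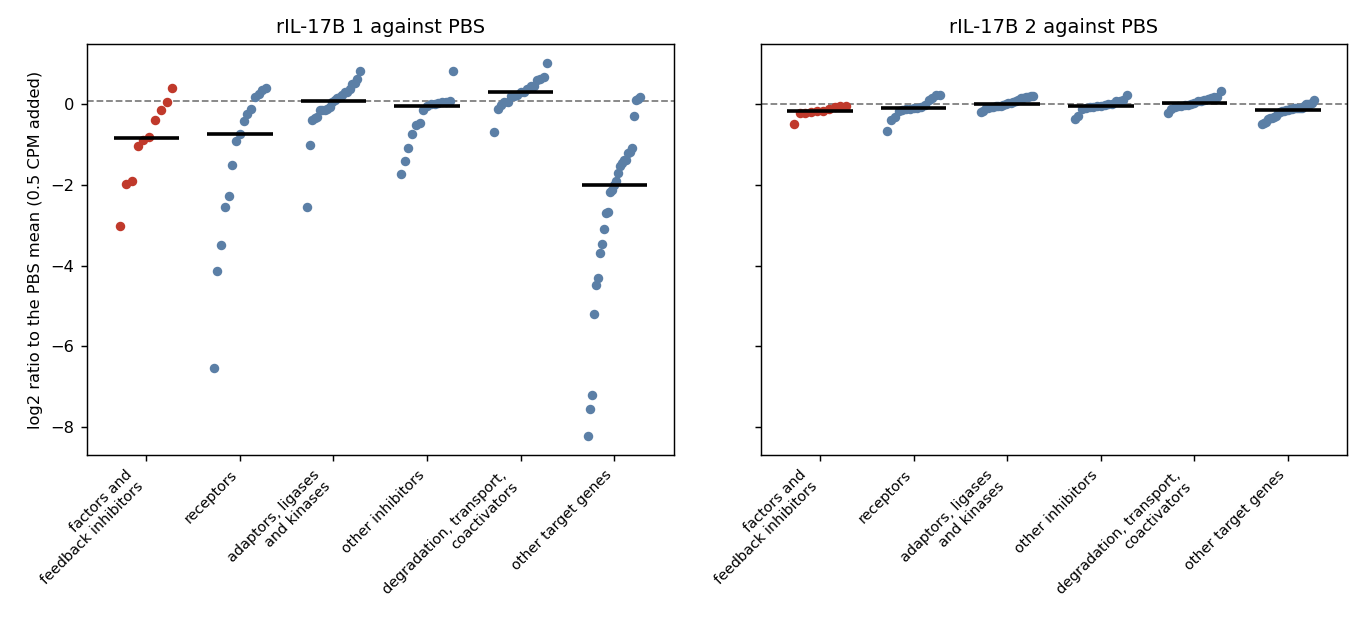
Log2 ratio to the PBS mean (vertical axis, 0.5 CPM added) of the tested genes of 6 lists (horizontal axis), 1 point per gene, in rIL-17B replicate 1 (left) and rIL-17B replicate 2 (right). Black bars are list medians and dashed lines the median of all genes tested. In replicate 1 the medians are -0.84 for the factors and feedback inhibitors and -1.99 for the other targets, and in replicate 2 they are -0.17 and -0.13.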

How the data were processed

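Libraries of HGC-27 RNA were made by Smart-seq2, with oligo-dT priming and PCR. The authors deposited raw read counts per gene name, 1 library per table, without normalization. The submitters' processing notes name Bowtie2 2.2.3, HISAT2 2.1.0, TopHat2, HTSeq 0.6.0 and the build hg38, but not the role of each tool. Which annotation was counted, and whether by strand, is not given in the sources used here.

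Between 22 and 25 entries per library with names turned into date-like numbers (at most 0.244% of counts) were left out, repeated names, which carried identical counts, were used once, and missing genes were set to 0. The remaining totals were 15904594 and 12888029 with PBS and 14615341 and 17555879 with rIL-17B. The 2 groups were compared with edgeR 4.0.16 in R 4.3.3 (TMM, filterByExpr, quasi-likelihood F test, 16361 genes, Benjamini-Hochberg, threshold 0.05). The standard error is the size of the log2 fold change divided by the square root of F. The fit was tested on simulated data with known changes, drawn with the spread between the PBS libraries. The rIL-17B libraries differed more from each other, so this test does not show which changes the fit can find in these data. An exact permutation test of 2 against 2 libraries cannot go below p = 0.333, so it was not used. The members and the gene lists were chosen with earlier results of these data known, and lists were written by hand. Named were all 10 members and, per further list, the 3 genes with the highest mean CPM and the 2 with the largest fitted change. Coordinates and exon lengths are from GENCODE 29 on GRCh38. Alternatives were DESeq2 1.42.0, other scalings and filters, a threshold of 0.1, the replicate number as a block and leaving out each library. Tables were joined with Python 3.11.15.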

Additional observations from a re-analysis of the deposited data

How the results depend on the processing

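The count of 0 members called, of 0 of the 96 pathway genes and of 0 of all genes was the same with upper-quartile scaling, library totals alone, DESeq2, no filter, a minimum of 10 counts per library, an adjusted p under 0.1 and the replicate block. Leaving out each library in turn gave 0 to 7 members, 0 to 62 pathway genes and 0 to 9489 genes called. The highest counts came without rIL-17B replicate 2, and without rIL-17B replicate 1 they were 0, 7 and 504. The median log2 fold change of the members, -0.47, ranged from -1.04 to -0.18 with 1 library left out, and was -0.55 with the replicate block. Libraries with the same replicate number shared only that number (their deviations correlated at 0.0800 across genes), and the block moved the genes with an unadjusted p under 0.05 from 226 to 173. The median log2 ratio of the members in rIL-17B replicate 1, -0.84, was -0.89 with 0.1 CPM added and -0.97 on TMM-scaled totals, and -0.87 to -0.81 with 1 PBS library left out. In rIL-17B replicate 2 it was -0.16 to -0.14 with 1 PBS library left out. The count of members below PBS in each rIL-17B library used, 8, ranged from 8 to 10. The fitted change of RELA turned to 0.00025 with library totals alone, and that of REL, 0.08, ranged from -0.17 without rIL-17B replicate 1 to 0.29 without replicate 2. The cause was not tested. Low counts leave a wide counting error for NFKBIE and for RELB in rIL-17B replicate 1, with 10 counts and an interval of 0.328 to 1.26 CPM. That RELB interval still lay wholly below those of both PBS libraries.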

Other observations

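The genes of this paragraph were chosen after their values were seen. Upstream of RELB and NFKB2 in the non-canonical branch, genes differed in direction in rIL-17B replicate 1. MAP3K14, which encodes NIK, had 24.4 and 23.2 CPM under PBS, 37.2 and 26.7 CPM under rIL-17B, and CHUK, which encodes the IκB kinase α that NIK acts on, had 45.2 and 43.1 CPM against 62.9 and 50.8 CPM. TRAF2, an adaptor that helps keep NIK low, had 42.1 and 43.1 CPM under PBS, 76.2 and 48.1 CPM under rIL-17B. For these 3 genes both rIL-17B libraries were above both PBS libraries, as for 31.5% of all genes tested, and the adjusted p was 0.661 for each in edgeR's quasi-likelihood test. MAP3K14 shares 713 exon bases with MAP3K14-AS1 on the opposite strand. By contrast, TRAF3, with 46.3 and 53.2 CPM under PBS, had 38.2 CPM in rIL-17B replicate 1 and 46.7 CPM in replicate 2. CD40, a receptor of this branch, had 3.02 and 2.64 CPM under PBS, 0.0684 CPM (1 count) in replicate 1 and 2.56 CPM in replicate 2. BIRC3 was low in replicate 1 as well.

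The IκB genes that are not counted among the feedback inhibitors overlapped between the groups. NFKBIB, which encodes IκBβ, had 18.8 and 22.3 CPM under PBS, 21.8 and 22.2 CPM under rIL-17B. BCL3, a nuclear IκB, had 26.3 and 24.0 CPM against 22.6 and 24.2 CPM, and NFKBID had between 4.84 and 5.74 CPM in the 4 libraries.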
